A study of Mus musculus with 58 samples.

Results

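The 6 mouse genes Ajuba, Tgm2, Pros1, Tbkbp1, Rnd3 and Inhba were described across genotypes and activation states of CD4+ T cells, out of 24028 genes in the count tables. They were chosen by their full-gene counts in stimulated cells, for values much lower in knockout or much higher in transgenic than in wild-type cells. Those 2 differences are therefore given as a description, without a test, while naive cells, time and stimulus strength are tested. RNA was sequenced in 58 libraries from 15 groups. KO cells (T1792 delta/delta) carried a Cre driven by Cd4 sequences that deleted the loxP-flanked miR-17~92 microRNA cluster. In TG cells (T1792 tg/tg) this Cre had switched on an added copy of the cluster, driven by the CAG promoter from Rosa26, by deleting its stop signal. WT cells (wild type) carried neither allele and no Cre, so in a comparison of either genotype with WT cells the changed cluster comes together with Cre, which KO and TG cells share. A kit was used to purify naive CD4+ T cells from lymph nodes and spleens pooled over 10 animals, male and female, whose ages the labels do not give. The cells were analysed naive, or after culture with IL-2 (50 U/ml) for 24 or 48 h on coated plates, where anti-CD28 (0.2 µg/ml) was combined with 0.25 µg/ml of anti-CD3 as the very weak and 0.5 µg/ml as the weak stimulus. Groups held 4 libraries, numbered 1 to 4, apart from KO naive and WT naive cells, which held numbers 1, 2 and 4. The labels do not say whether libraries of a group came from separate animals, so p-values measure the spread between these libraries, which may be technical.

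MicroRNAs of the miR-17~92 cluster are cut from a shared transcript and bind messenger RNAs through a short seed near their 5′ end, which lowers the stability or translation of the bound RNA. In T cells the cluster is known for promoting expansion and survival after antigen and CD28 signals, and Bcl2l11 (Bim) is a well-known target. The 6 genes serve different pathways. Ajuba is a LIM-domain scaffold protein of cell junctions that restrains the LATS kinases of the Hippo pathway. Tbkbp1 is an adaptor that binds the kinase TBK1. Pros1 encodes protein S, a plasma cofactor of activated protein C and a ligand of the receptors Tyro3 and Mertk. Inhba encodes the activin βA chain, which forms activin A, a ligand of the TGF-β family. Tgm2 is transglutaminase 2, which crosslinks proteins in a calcium-dependent reaction and binds GTP. Rnd3 is an atypical small GTPase that stays bound to GTP and inhibits the kinase ROCK1.

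The mature microRNAs of the cluster's main arms are shown because they are what the genotypes remove or add. They were copied from RefSeq (GRCm38.p6), where the cluster lies on the plus strand of chromosome 14, and run 5′ to 3′ with the seed (bases 2 to 8) in capitals.
miR-17-5p: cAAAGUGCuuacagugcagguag
miR-20a-5p: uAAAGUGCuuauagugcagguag
miR-18a-5p: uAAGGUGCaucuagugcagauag
miR-19a-3p: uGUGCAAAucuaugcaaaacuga
miR-19b-3p: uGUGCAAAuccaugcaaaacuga
miR-92a-3p: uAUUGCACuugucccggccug
The first pair shares a seed, as do both miR-19 forms, so the 6 sequences carry 4 seeds.

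The 3′ UTRs of the 6 genes (GENCODE M21, GRCm38, the longest annotated per gene, 1156 to 4495 nt) were searched on the transcript strand for the exact 7-letter complements of those 4 seeds: GCACTTT (miR-17/20a), GCACCTT (miR-18a), TTTGCAC (miR-19) and GTGCAAT (miR-92a). Each match is shown as the 30 bases around it, with the match in capitals.
Ajuba, miR-17/20a: tcaactttgtgGCACTTTgtgatacaaatg
Tgm2, miR-18a: atatgtgctagGCACCTTaagttctcacag
Pros1, miR-92a: ttacctgtgacGTGCAATgtttaaatatga
Rnd3, miR-18a: tgagggccaaaGCACCTTggtcagatctat
Rnd3, miR-19: caactgctaccTTTGCACctgtctcttctt
Inhba, miR-19: atcgtttactaTTTGCACtacgatggtgtt
Tbkbp1 had no match. So 5 of the 6 genes held at least 1 of the 4 words, against 27.8% of 21653 genes with a 3′ UTR, whose median length was 912 nt. Each of the 6 UTRs was longer than this median and the shares were not matched for length, so nothing is read from the difference. Over those genes GCACTTT was found in 11.3%, GCACCTT in 7.56%, TTTGCAC in 11% and GTGCAAT in 6.35%. A match is a description of the letters and not a measured binding site.

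Promoters of 5 of the 6 genes were matched in RefSeq (GRCm38.p6), as 250 bases before to 50 after a start site, and those of Ajuba, Rnd3 and Inhba are printed because these genes had the largest TG-minus-WT differences. Both strands were searched for the AP-1 word TGANTCA, the TEAD word GGAATG, the nuclear receptor element AGGTCA, the TATA box word TATAAA and the E-box CACGTG, with matches in capitals.
Ajuba, chr14:54577612-54577911, minus strand: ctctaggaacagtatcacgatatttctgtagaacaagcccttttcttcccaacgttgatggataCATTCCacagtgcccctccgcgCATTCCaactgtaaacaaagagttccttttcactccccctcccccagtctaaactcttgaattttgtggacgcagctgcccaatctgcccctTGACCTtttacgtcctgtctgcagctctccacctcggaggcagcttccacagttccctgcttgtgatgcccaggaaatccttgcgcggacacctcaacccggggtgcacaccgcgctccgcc
Rnd3, chr2:51149062-51149361, minus strand: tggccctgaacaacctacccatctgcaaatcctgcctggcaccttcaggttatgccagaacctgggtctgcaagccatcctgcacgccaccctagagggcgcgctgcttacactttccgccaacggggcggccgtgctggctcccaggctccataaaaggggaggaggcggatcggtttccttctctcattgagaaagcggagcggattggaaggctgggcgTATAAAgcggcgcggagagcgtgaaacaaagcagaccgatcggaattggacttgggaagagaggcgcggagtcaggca
Inhba, chr13:16011601-16011900, plus strand: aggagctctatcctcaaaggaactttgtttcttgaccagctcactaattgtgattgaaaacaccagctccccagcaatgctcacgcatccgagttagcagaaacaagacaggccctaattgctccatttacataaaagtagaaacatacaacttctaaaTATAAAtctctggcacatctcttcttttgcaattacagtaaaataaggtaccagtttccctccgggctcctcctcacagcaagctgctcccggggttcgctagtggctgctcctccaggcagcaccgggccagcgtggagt
The Ajuba window held 2 GGAATG words and 1 AGGTCA word, all on the opposite strand. Rnd3 had TATAAA starting 28 bases before its start site, and Inhba 91 bases before. The windows of Pros1 held none of the words, and those of Tbkbp1, with 2 start sites, held CACGTG in the first and, overlapping each other, TGANTCA and GGAATG in the other. Of 32851 promoters of this length, 7.81% held TGANTCA, 14.7% GGAATG, 16.3% AGGTCA, 13.6% TATAAA and 7.15% CACGTG. The matches are letters only.

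The 58 libraries held between 19197383 and 20810338 full-gene counts each. Levels are given as CPM, a gene's counts scaled to a common library total by the TMM effective library sizes, with the SD over libraries, and 3 counts in a library equal 0.144 to 0.156 CPM. Counts of the cluster's host hairpin Mir17 followed the labels: 2 in KO, 140 in TG and 57 in WT cells, summed over the 16 stimulated libraries of each genotype. CD4 T cell markers were high in every library: 7 of the 8 listed genes were in the tables, and their summed level ran from 2385 CPM in a TG to 6154 CPM in a KO library. Naive libraries also held RNA of other cells. Stromal and endothelial markers summed to 248 CPM in a TG to 337 CPM in a KO naive library, and B cell markers to 114 CPM in a KO to 299 CPM in a WT naive library. Both sums were lower in stimulated libraries. In bulk RNA, fewer cells expressing a gene and less RNA per cell cannot be told apart. Among libraries at 48 h, the summed level of 4 activation markers (Il2ra, Irf4, Mki67, Tfrc) was 2891 to 4387 CPM in KO, 4192 to 5365 CPM in TG and 3812 to 4442 CPM in WT cells. The part of this shift in the differences of the 6 genes was not tested.

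Ajuba (Entrez ID 16475, chr14:54567469-54577661, GRCm38) differed between the genotypes in both directions and in all 4 stimulated states. Under the weak stimulus at 48 h it had 2.38, 3.37, 1.94 and 2.76 CPM in KO, 79.0, 109, 52.3 and 77.5 CPM in TG and 8.35, 21.2, 17.9 and 13.4 CPM in WT cells (replicates 1 to 4). Under the very weak stimulus at 48 h it had 2.92, 3.98, 2.31 and 3.08 CPM in KO, 84.0, 149, 68.0 and 83.3 CPM in TG and 9.62, 20.5, 19.3 and 15.5 CPM in WT cells. KO cells lay below and TG cells above all WT libraries of the same state. At 24 h the order was the same at lower levels, with 1.90, 1.41, 1.04 and 0.896 CPM in KO, 18.5, 20.3, 7.77 and 18.2 CPM in TG and 4.85, 4.73, 3.84 and 5.98 CPM in WT cells under the weak stimulus and 1.47, 0.6, 0.903 and 0.836 CPM in KO, 12.4, 10.2, 10.4 and 11.2 CPM in TG and 3.49, 4.01, 4.88 and 3.46 CPM in WT cells under the very weak stimulus. The fitted log2 differences were -2.54, -2.40, -1.89 and -2.06 for KO against WT cells (weak 48 h, very weak 48 h, weak 24 h, very weak 24 h). In the same order of states they were 2.39, 2.56, 1.74 and 1.48 for TG against WT cells. KO cells at 48 h, at 2.61 ± 0.606 and 3.08 ± 0.69 CPM (SD, n = 4 each), were on average below the WT level at 24 h of 4.85 ± 0.877 and 3.96 ± 0.662 CPM. Under the very weak stimulus these libraries overlapped, with 3.98 CPM in KO replicate 2 at 48 h and 3.46 CPM in WT replicate 4 at 24 h. In naive cells Ajuba was low in each genotype, at 0.631 ± 0.0998 CPM in KO (n = 3), 0.728 ± 0.233 CPM in TG (n = 4) and 0.692 ± 0.343 CPM in WT cells (n = 3).

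Tbkbp1 (Entrez ID 73174, chr11:97136171-97151506) was lower in KO cells in every state, while TG cells exceeded WT cells mainly at 24 h. At 24 h it had 20.7, 14.6, 2.70 and 8.51 CPM in KO, 85.2, 72.2, 58.6 and 58.9 CPM in TG and 46.1, 44.4, 46.2 and 46.7 CPM in WT cells under the weak stimulus. Under the very weak stimulus at 24 h it had 23.5, 11.8, 2.36 and 3.05 CPM in KO, 68.6, 65.0, 54.4 and 56.9 CPM in TG and 42.6, 39.6, 43.5 and 45.4 CPM in WT cells. The KO libraries were all below the WT libraries but varied much more among themselves, with numbers 3 and 4 lowest. At 48 h the weak stimulus gave 44.9, 46.3, 18.8 and 30.7 CPM in KO, 82.0, 98.6, 69.0 and 77.5 CPM in TG and 67.8, 75.7, 61.4 and 67.6 CPM in WT cells, and the very weak stimulus 51.4, 50.1, 19.2 and 27.5 CPM in KO, 69.0, 87.2, 69.2 and 67.8 CPM in TG and 78.7, 89.5, 54.2 and 73.8 CPM in WT cells. TG and WT ranges overlapped there, with log2 differences of 0.26 (weak) and -0.02 (very weak), against 0.58 and 0.52 at 24 h. For KO against WT cells they were -0.95 and -0.999 at 48 h and -1.98 and -2.08 at 24 h.

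Pros1 (Entrez ID 19128, chr16:62854307-62929346), the protein S gene, had 18.3, 25.3, 20.3 and 27.7 CPM in KO, 114, 136, 157 and 152 CPM in TG and 38.1, 52.5, 82.4 and 64.8 CPM in WT cells under the very weak stimulus at 48 h. These ranges did not overlap. Under the weak stimulus at 48 h it had 13.1, 15.1, 15.7 and 25.3 CPM in KO, 95.4, 60.4, 102 and 117 CPM in TG and 28.2, 50.8, 77.4 and 64.7 CPM in WT cells, where TG replicate 2 fell inside the WT range. At 24 h the levels were 5.02, 8.09, 9.60 and 8.81 CPM in KO, 43.0, 66.0, 50.8 and 55.1 CPM in TG and 7.49, 18.0, 40.7 and 23.5 CPM in WT cells under the weak stimulus, and 8.25, 14.2, 10.2 and 11.3 CPM in KO, 64.3, 87.1, 79.9 and 82.9 CPM in TG and 13.6, 22.8, 45.9 and 21.9 CPM in WT cells under the very weak stimulus. WT replicate 3 was the highest WT library in all 4 states and replicate 1 the lowest, so that KO and WT cells overlapped at 24 h through WT replicate 1. The log2 differences of KO against WT cells ran from -1.68 (weak, 48 h) to -1.24 (very weak, 24 h). Those of TG against WT cells were 0.76 and 1.23 at 48 h (weak, very weak) and 1.26 and 1.59 at 24 h.

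Inhba (Entrez ID 16323, chr13:16004256-16031609), which encodes the activin A chain, was highest in TG libraries at 48 h. With the weak stimulus at 48 h it had 10, 17, 10 and 0 counts in KO, 276, 989, 110 and 139 counts in TG and 37, 30, 9 and 4 counts in WT libraries. With the very weak stimulus at 48 h it had 8, 8, 0 and 1 counts in KO, 222, 512, 50 and 78 counts in TG and 14, 26, 1 and 5 counts in WT libraries. TG libraries lay above all WT libraries in both states, and TG replicate 2 held the most counts of its group each time. The mean was 19.7 ± 21.8 CPM in TG and 1.02 ± 0.82 CPM in WT cells under the weak stimulus (SD, n = 4 each), a log2 difference of 4.26 ± 0.76 (SE). At 24 h the highest library held 13 counts, and the 4 libraries of a group summed to 13, 34 and 12 counts in KO, TG and WT cells under the weak stimulus. All 3 KO naive libraries had 0 counts, which allows up to 3 counts in each, so no fold was formed from them.

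Tgm2 (Entrez ID 21817, chr2:158116405-158146392) had the highest level per kilobase of the 6 genes at 48 h in TG and WT cells, where its libraries also spread widely; in KO cells Tbkbp1 was as high (10.1 CPM per kb for Tgm2 and 10.5 for Tbkbp1 under the weak stimulus). With the weak stimulus at 48 h it had 28.3, 129.6, 7.18 and 17.5 CPM in KO, 837, 1511, 160.1 and 449.8 CPM in TG and 120.1, 573, 53.4 and 188 CPM in WT cells. With the very weak stimulus at 48 h it had 25.3, 108, 3.497 and 7.13 CPM in KO, 796, 933, 185 and 289.6 CPM in TG and 130.4, 676, 24.2 and 122 CPM in WT cells. The genotype ranges overlapped, and replicate 2 was highest and replicate 3 lowest in each group. Between libraries with the same number and state, Tgm2 was lower in KO than in WT cells in 15 of 16 pairs, and higher in TG than in WT cells in 15 of 16 pairs. The log2 differences at 48 h were -2.36 ± 0.78 and -2.72 ± 0.79 (SE) for KO against WT cells, weak and very weak, and 1.66 ± 0.75 and 1.21 ± 0.74 for TG against WT cells. At 24 h all libraries were low, between 0.1 CPM in a KO and 6.19 CPM in a TG library. Annotated exons of Tgm2 share 370 bases with Rprd1b and 633 bases with Gm20412 on the opposite strand, and since the strand setting of the counting is not given in the sources used here, reads of those genes may be among its counts.

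Rnd3 (Entrez ID 74194, chr2:51130439-51149111), the ROCK1 inhibitor, separated TG cells from both other genotypes at 48 h. With the weak stimulus at 48 h it had 2.65, 1.71, 1.70 and 0.613 CPM in KO, 19.4, 25.01, 11.2 and 18.8 CPM in TG and 0.871, 1.74, 3.45 and 1.88 CPM in WT cells. With the very weak stimulus at 48 h it had 1.30, 1.05, 1.44 and 0.657 CPM in KO, 18.0, 30.4, 15.5 and 22.6 CPM in TG and 1.21, 1.88, 3.34 and 2.05 CPM in WT cells. Every TG library exceeded every WT library, by log2 differences of 3.22 ± 0.43 and 3.35 ± 0.43 (SE), whereas KO and WT libraries overlapped in all 4 states. KO libraries were below the WT libraries of the same number in only 10 of 16 pairs, and the mean KO-minus-WT log2 difference over the 4 states was -0.31 ± 0.41 (SE). Its sign depended on the libraries used, as it was 0.28 in replicates 1 and 2 alone. At 24 h Rnd3 was close to absent, with 15, 56 and 11 counts summed over the 4 libraries of KO, TG and WT cells under the weak stimulus, and 5, 46 and 7 under the very weak stimulus.

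**Figure D1:**
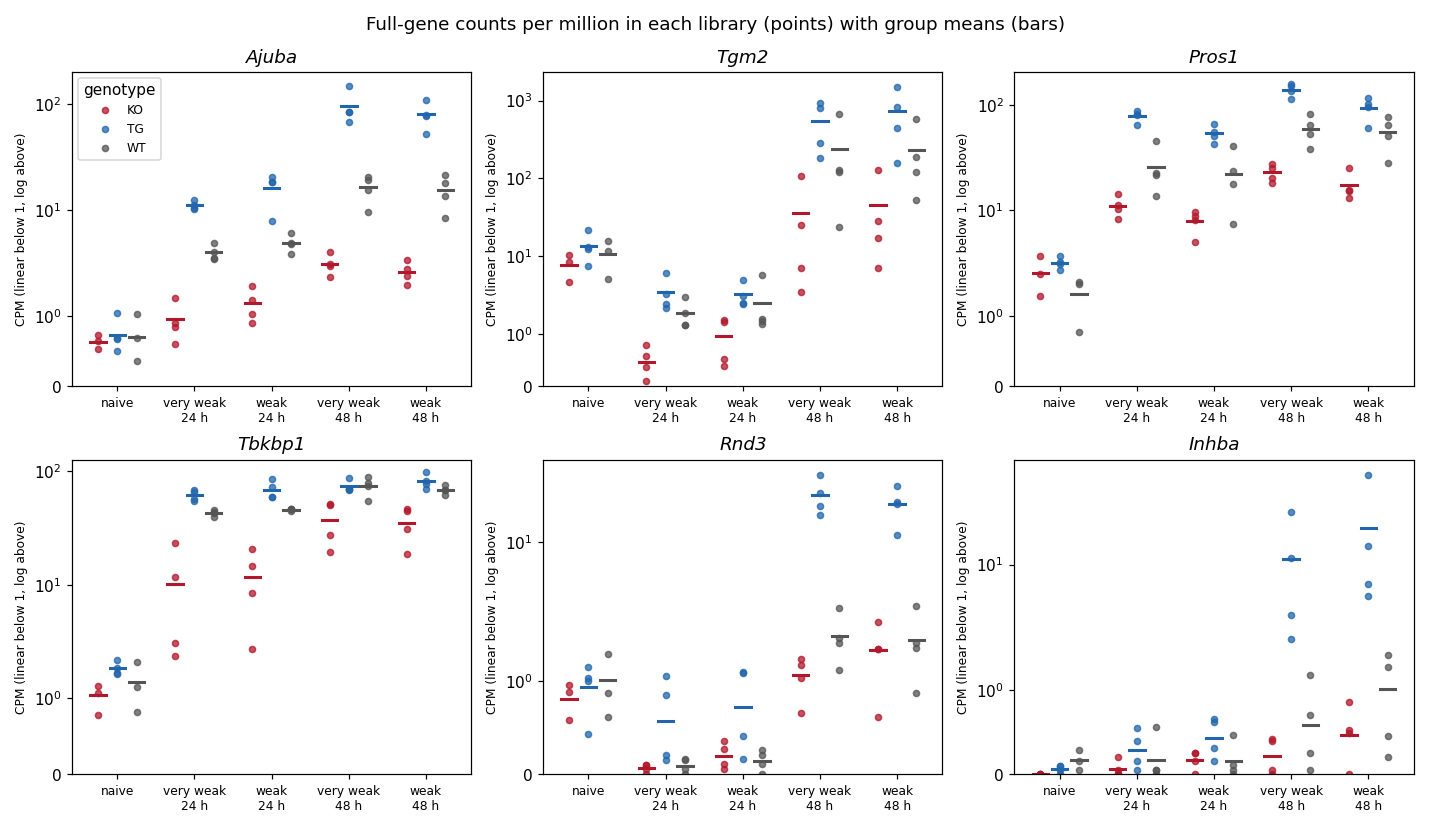
Full-gene CPM of the 6 genes (vertical axis, linear below 1 and logarithmic above) in naive cells and after 24 or 48 h of stimulation (horizontal axis); points are libraries, bars are group means, and colours are KO, TG and WT. Ajuba separates the genotypes in all stimulated states, Rnd3 and Inhba separate TG cells at 48 h, and Tgm2 is low at 24 h and high with wide spread at 48 h.

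Levels of different genes were compared per kilobase of exon. In TG cells under the weak stimulus at 48 h the order was Tgm2 (164 CPM per kb), Pros1 (28.6), Tbkbp1 (24.5), Ajuba (21.2), Inhba (12.7) and Rnd3 (4.26). The intervals of mean ± SD overlapped between all neighbours in this order. In WT cells of that state it was Tgm2 (51.9 CPM per kb), Tbkbp1 (20.4), Pros1 (16.9), Ajuba (4.05), Inhba (0.657) and Rnd3 (0.455). There the intervals of Tgm2 and Tbkbp1, of Tbkbp1 and Pros1, and of Inhba and Rnd3 overlapped, while Pros1 and Ajuba, and Ajuba and Inhba, were apart.

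The number of genes whose KO libraries lay wholly below the WT libraries was 3 of 6 under the weak stimulus at 48 h (Ajuba, Pros1, Tbkbp1; 4.5% of all 13709 genes tested), 3 under the very weak stimulus at 48 h (the same genes; 2.59%), 2 under the weak stimulus at 24 h (Ajuba, Tbkbp1; 3.91%) and 3 under the very weak stimulus at 24 h (Ajuba, Tgm2, Tbkbp1; 3.76%). TG libraries lay wholly above WT libraries for 3 genes under the weak stimulus at 48 h (Ajuba, Rnd3, Inhba; 6.03%), 4 under the very weak stimulus at 48 h (these and Pros1; 8.45%), and for Ajuba, Pros1 and Tbkbp1 in both states at 24 h (6.56% under the weak and 6.99% under the very weak stimulus). These counts follow from how the genes were chosen and nothing is read from them. Averaged over the 4 states, the KO-minus-WT log2 differences ran from -2.22 (Ajuba) to -0.31 (Rnd3), and the TG-minus-WT differences from 0.34 (Tbkbp1) to 2.86 (Rnd3). With replicates 3 and 4 alone the TG-minus-WT differences were 1.84 for Rnd3 and 3.505 for Inhba, and the KO-minus-WT differences -2.48 for Tbkbp1 and -2.75 for Tgm2; without WT very weak 24 h replicate 2 the TG difference of Inhba was 3.201. Both comparisons use the same WT libraries. Side by side, Ajuba, Pros1 and Tgm2 had KO and TG values of -2.22 and 2.04, -1.45 and 1.21, and -2.12 and 1.03. Tbkbp1 had its larger value on the KO side (-1.503 and 0.34), and Rnd3 (-0.31 and 2.86) and Inhba (-0.94 and 2.68) on the TG side.

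**Figure D2:**
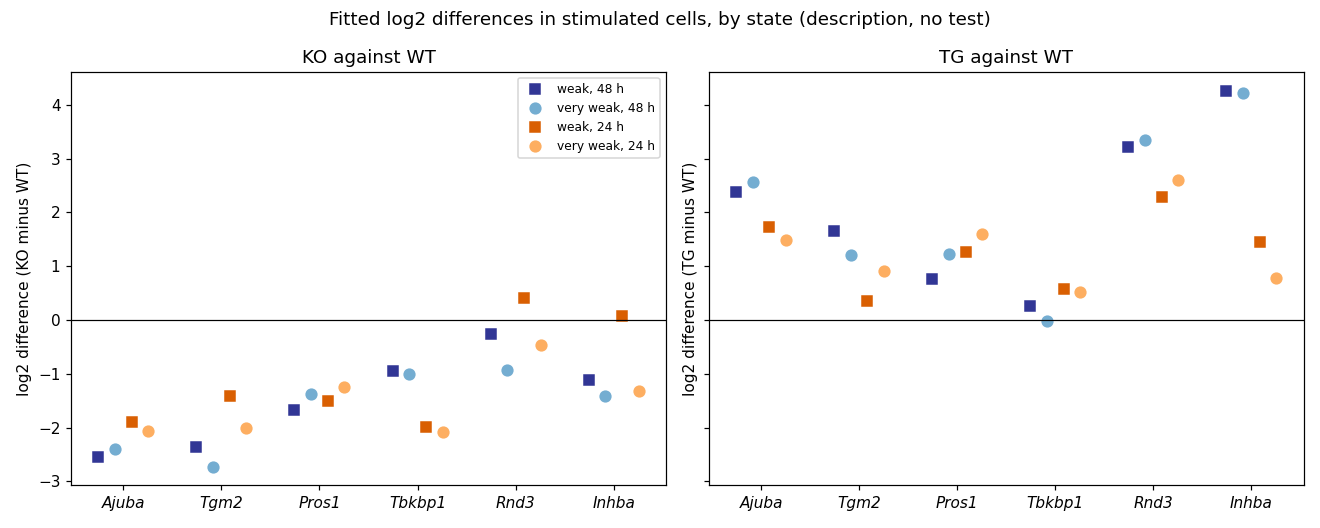
Fitted log2 differences of full-gene counts (vertical axis) of the 6 genes (horizontal axis) for KO against WT (left) and TG against WT (right), with a point for each stimulated state and no error bars. The TG differences of Rnd3 and Inhba exceed 3 at 48 h, while the Inhba and Rnd3 points at 24 h rest on 56 counts or fewer per group.

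Intron counts, which come largely from unspliced RNA, gave another reading of the same libraries. In KO against WT cells, averaged over the stimulated states, the intron log2 differences were -1.42 ± 0.27 (SE) for Ajuba, -1.53 ± 0.14 for Pros1 and -1.35 ± 0.19 for Tbkbp1. The full-gene values were -2.22 ± 0.15, -1.45 ± 0.16 and -1.503 ± 0.19. In TG against WT cells the intron differences were 2.03 (Ajuba), 2.28 (Rnd3), 1.16 (Tgm2), 1.15 (Pros1) and 0.31 (Tbkbp1), each with the sign of the full-gene difference. Of the intron counts of Tgm2, KO cells under the weak stimulus had 2, 76, 8 and 13 at 48 h and 0 in all 4 libraries at 24 h, so its KO intron difference is not given. Rnd3 had likewise 0 intron counts in that KO group at 24 h. Inhba was too low in introns to enter the intron fit, and its intron counts reached 40 in a TG library at 48 h, against 6 in any WT library. Whether intron and full-gene differences differed was not tested.

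**Figure D3:**
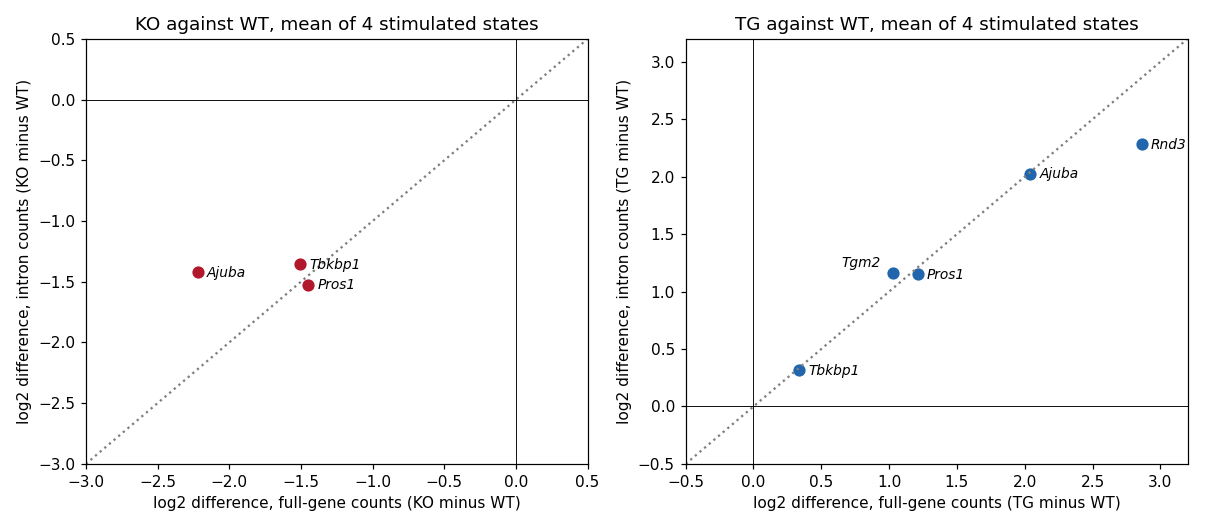
Log2 difference of intron counts (vertical axis) against that of full-gene counts (horizontal axis), KO minus WT on the left and TG minus WT on the right, averaged over 4 stimulated states; the dotted line marks equal values. Tgm2 and Rnd3 are left out on the left, where a KO group had 0 intron counts, and Inhba, too low in introns for the fit, on both sides; the points shown keep the sign of the full-gene difference.

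Naive cells were not used to choose the genes, and none of the 6 differed between genotypes there at an adjusted p under 0.05 (edgeR quasi-likelihood F test, Benjamini-Hochberg adjustment over 13709 genes). In KO against WT naive cells 0 of 6 genes were called, where 0.0365% of all genes were (5 genes). The log2 differences were 0.65 ± 0.51 (SE) for Pros1 (adjusted p = 0.996 by edgeR), -0.15 ± 0.51 for Ajuba, -0.46 ± 0.96 for Tgm2, -0.38 ± 0.68 for Tbkbp1 and -0.33 ± 0.58 for Rnd3. In TG against WT naive cells 0 of 6 were called, where 7.83% of all genes were (1074 genes). Pros1 came nearest, with 3.27, 2.70, 3.73 and 3.09 CPM in TG and 0.766, 2.08 and 1.99 CPM in WT naive libraries, a log2 difference of 0.98 ± 0.46 (SE) and an adjusted p of 0.204 by edgeR. All 4 TG naive values of Pros1 lay above the 3 WT values, but the share of all genes that did so in naive cells was not computed. Nothing is read from this separation. For the others the TG-minus-WT log2 differences in naive cells were 0.06 ± 0.47 (Ajuba), 0.34 ± 0.88 (Tgm2), 0.39 ± 0.59 (Tbkbp1) and -0.12 ± 0.53 (Rnd3). Inhba had 0, 2, 1 and 2 counts in TG and 3, 6 and 1 counts in WT naive libraries, too few for a fold. At an unadjusted p under 0.05, 0 of the 6 genes passed for KO and 1, Pros1, for TG cells by edgeR; over all genes 651 and 2997 did by edgeR, and 638 and 2975 by DESeq2. The 1074 genes called at an adjusted p under 0.05 by edgeR for TG cells became 526, 646 and 636 without WT replicate 4, WT replicate 2 or TG replicate 4 of the naive cells, and the 5 called for KO cells became 2, 20 and 2 without KO naive replicate 1, 2 or 4.

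Tgm2 in naive libraries moved with macrophage markers. Tgm2 had 4.72, 8.43 and 10.5 CPM in KO, 7.56, 12.3, 13.1 and 21.8 CPM in TG and 5.10, 11.6 and 15.7 CPM in WT naive libraries. The summed level of 9 macrophage and monocyte genes was 112, 197 and 211 CPM in the same KO libraries, 102, 174, 238 and 265 CPM in the TG libraries and 132, 227 and 353 CPM in the WT libraries. Within each genotype the libraries had the same order in both measures. In stimulated libraries that sum was only 2.19 to 9.04 CPM. The part of these markers in the naive Tgm2 level was not tested.

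Activation of WT cells changed the genes along different courses. These WT stimulated libraries were also the basis of the choice of genes, although for another comparison. Against naive cells, averaged over the 4 stimulated states, 4 of 6 genes were called, where 81.3% of all genes were. Tbkbp1, Pros1 and Ajuba rose, by log2 5.32 ± 0.51, 4.51 ± 0.42 and 3.56 ± 0.36 (SE; adjusted p = 2.78e-13, 9.67e-14 and 7.88e-13 by edgeR). Rnd3 fell by 1.05 on the log2 scale (SE 0.47; adjusted p = 0.0362 by edgeR), a call that was lost without WT naive replicate 4 (-0.63, adjusted p = 0.31 by edgeR) and, at adjusted p of 0.0505 to 0.0571 by edgeR, without WT weak 24 h replicate 1 or WT very weak 24 h replicate 2 or 4. It was also lost with no filter on low counts (-0.99, adjusted p = 0.0544 by edgeR).

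Since the changes at 24 and 48 h had opposite signs for some genes, the times were also fitted apart, a choice made after seeing these values. At 24 h 79.7% of all genes and at 48 h 80.6% were called against naive cells. Tgm2 had 10.8 ± 5.35 CPM in naive cells (SD, n = 3), 1.89 ± 0.814 and 2.56 ± 2.17 CPM at 24 h and 238 ± 296 and 234 ± 233 CPM at 48 h (very weak and weak stimulus, n = 4 each). It fell at 24 h against naive cells (log2 -2.29 ± 0.82 SE, adjusted p = 0.0104 by edgeR) and rose at 48 h (log2 4.44 ± 0.95 SE, adjusted p = 3.93e-05 by edgeR). At 24 h the macrophage marker sum of WT libraries was 3.6 to 5.5 CPM, against 132 to 353 CPM in WT naive libraries, beside this fall of Tgm2; its part was not tested. Rnd3 had 1.02 ± 0.492 CPM in naive cells (SD, n = 3), 0.0901 ± 0.0776 and 0.143 ± 0.115 CPM at 24 h and 2.12 ± 0.893 and 1.99 ± 1.07 CPM at 48 h. It fell at 24 h (log2 -3.10 ± 0.59 SE, adjusted p = 6.05e-06 by edgeR) and was called higher at 48 h (log2 1.004 ± 0.46 SE, adjusted p = 0.0417 by edgeR). Beside the fall of Rnd3, the stromal and endothelial marker sum was 277 to 292 CPM in WT naive and 25.6 to 44.2 CPM in WT 24 h libraries. The B cell marker sum was 167 to 299 CPM and 15.8 to 46.4 CPM. The part of these markers was not tested. Tbkbp1 reached most of its level by 24 h, with 1.39 ± 0.644 CPM in naive cells (SD, n = 3), 42.8 ± 2.41 and 45.8 ± 0.97 CPM at 24 h and 74.1 ± 14.7 and 68.1 ± 5.86 CPM at 48 h. Inhba did not pass the test at either time (log2 2.20 ± 1.06 SE at 48 h, adjusted p = 0.053 by edgeR).

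Most of the genes rose with time in each genotype. Between 48 h and 24 h, averaged over both strengths, 6 of 6 genes rose in WT cells (28.6% of all genes rose). In KO cells Ajuba, Tgm2, Pros1 and Rnd3 rose and Inhba was not called (29.3% of all genes rose). The high values of Ajuba, Tgm2, Rnd3 and Inhba in TG cells at 48 h were among those that chose these genes. So were the low values of Tbkbp1 in KO cells at 24 h. Their time differences in those cells are therefore a description. In TG cells Pros1 rose and Tbkbp1 was not called (26.7% of all genes rose). None of the 6 was called lower at 48 h. The stimulated libraries of all genotypes entered the choice of genes, although for another comparison. At both times these included low values of Ajuba, Tgm2 and Pros1 in KO cells and high values of Pros1 in TG cells. The calls of these genes between times in those cells are therefore not independent of the choice. For Tgm2 the log2 fold change of 48 h over 24 h was 5.91 ± 0.79 in KO, 7.55 ± 0.72 in TG and 6.74 ± 0.71 in WT cells (SE), with adjusted p of 1.56e-08 in KO and 5.95e-11 in WT cells by edgeR. For Rnd3 it was 3.54 ± 0.48 in KO, 4.94 ± 0.34 in TG and 4.10 ± 0.46 in WT cells (SE), with adjusted p of 2.16e-08 in KO and 2.1e-10 in WT cells by edgeR. Both genes were higher at 48 h in 8 of 8 pairs of same-numbered libraries in each genotype, the KO cells included. In TG and WT cells the numbers did not pair all libraries between times. Pairs of the same number under both strengths are also not independent.

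Ajuba rose with time by log2 1.34 ± 0.24 in KO, 2.70 ± 0.19 in TG and 1.84 ± 0.20 in WT cells (SE), with adjusted p of 6.59e-06 in KO and 6.83e-11 in WT cells by edgeR. Pros1 rose by log2 1.10 ± 0.23 in KO, 0.82 ± 0.22 in TG and 1.25 ± 0.22 in WT cells (SE), with adjusted p of 8.98e-05, 0.00144 and 6.64e-06 by edgeR. Both were higher at 48 h in 8 of 8 pairs, except for 7 of 8 for Pros1 in TG cells, with the same limits on these pairs. Inhba rose in WT cells: the log2 fold changes were 1.57 ± 0.93 in KO, 5.35 ± 0.60 in TG and 2.22 ± 0.74 in WT cells (SE), with adjusted p of 0.147 in KO and 0.0104 in WT cells by edgeR. The WT call was lost without WT very weak 48 h replicate 2 (log2 1.83, adjusted p = 0.0529 by edgeR), and with the replicate number as a block the KO value was called (log2 1.60, adjusted p = 0.0141 by edgeR).

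Tbkbp1 rose in WT cells, and its KO value is a description. Its log2 fold changes were 1.73 ± 0.27 in KO, 0.26 ± 0.25 in TG and 0.68 ± 0.26 in WT cells (SE), with adjusted p of 0.412 in TG and 0.0215 in WT cells by edgeR. In TG cells it was already at 68.7 ± 12.7 and 61.2 ± 6.69 CPM at 24 h (weak and very weak; SD, n = 4 each), and the small rise was called when only the TG stimulated groups entered the fit (log2 0.26, adjusted p = 0.0288 by edgeR). With only 2 of the 4 replicate numbers some time calls were lost at an adjusted p under 0.05 by edgeR. These were Pros1 in TG cells with replicates 1 and 2 (log2 0.61, adjusted p = 0.0664 by edgeR), and with replicates 3 and 4 Tbkbp1 (log2 0.498, adjusted p = 0.0562 by edgeR) and Inhba (log2 2.86, adjusted p = 0.0695 by edgeR) in WT cells. The differences of these time courses between genotypes were not tested, because they rest on the comparison that chose the genes. In introns, Tgm2, Pros1 and Rnd3 rose between 48 h and 24 h in KO cells, and Ajuba did not (adjusted p = 0.101 by edgeR, 16.5% of all genes rose). In TG cells Pros1 rose and Tbkbp1 did not (15.4%), and in WT cells 5 of 5 measured genes rose (16.8%). The intron values of Tbkbp1 in KO cells and of Ajuba, Tgm2 and Rnd3 in TG cells are a description, as for full-gene counts. The limit given above for Ajuba, Tgm2 and Pros1 in KO cells and Pros1 in TG cells holds for introns too. The KO intron values of Tgm2 and Rnd3 include the weak 24 h group with 0 counts in every library, so their size is not given.

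**Figure D4:**
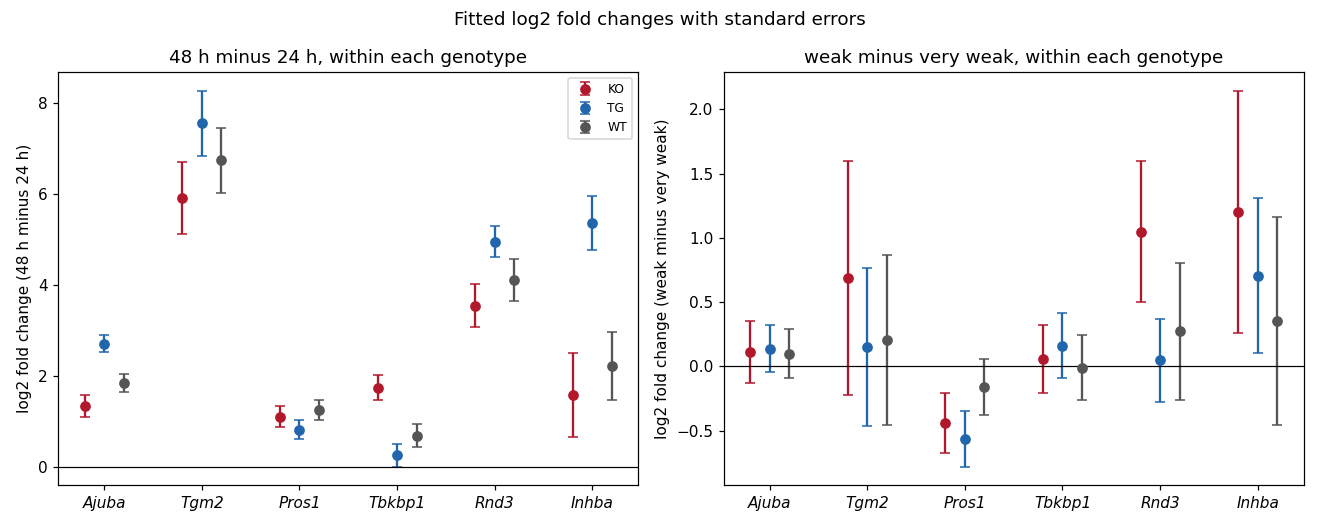
Log2 fold changes with standard errors (vertical axis) of the 6 genes (horizontal axis) within KO, TG and WT cells, for 48 h against 24 h (left) and for the weak against the very weak stimulus (right). Time values reach 7.55 for Tgm2 in TG cells, while the dose values lie between -0.56 and 1.20 and those of Pros1 are negative in all 3 genotypes.

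Anti-CD3 at 0.5 against 0.25 µg/ml was compared within each genotype. In the fit without a block no gene of the 13709 was called between the weak and the very weak stimulus in any genotype (0%), by edgeR, with 1183, 639 and 563 genes at an unadjusted p under 0.05 in KO, TG and WT cells, and 1230, 667 and 588 by DESeq2, which called 0 after adjustment as well. Of the 6 genes only Pros1 in TG cells had an unadjusted p under 0.05 by edgeR. Among the 6 genes Pros1 had the same direction in the most pairs, at 93.7 ± 23.9 CPM (weak) and 139.8 ± 19.4 CPM (very weak) in TG cells at 48 h, and 53.7 ± 9.59 and 78.6 ± 9.92 CPM at 24 h (SD, n = 4 each). It was lower under the weak stimulus in 8 of 8 same-numbered pairs in KO, 8 of 8 in TG and 7 of 8 in WT cells. The log2 fold changes were -0.44 ± 0.23, -0.56 ± 0.22 and -0.16 ± 0.22 (SE). Same-numbered libraries deviated together in this comparison, so the blocked values stand beside it. With the replicate number as a block over all libraries 10, 11 and 8 genes were called and none of the 6. With a block in only the groups compared 409, 746 and 1069 genes were called, among them Pros1 in KO (log2 -0.45, adjusted p = 0.0176 by edgeR) and in TG cells (log2 -0.57, adjusted p = 7.3e-05 by edgeR). In TG cells the same fit also called Inhba (log2 0.77, adjusted p = 0.00174 by edgeR) and Tbkbp1 (log2 0.16, adjusted p = 0.034 by edgeR), and in WT cells none of the 6. The share of all genes called in that fit is not given here, so nothing is read from the number of members called. High TG values of Inhba and Pros1 and low KO values of Pros1 entered the choice of genes. The dose calls of these genes in those cells are therefore not independent of it.

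At 48 h some of the genes were highest or lowest in the same replicate number across genotypes and strengths. Tgm2 was highest in replicate 2 in 6 of 6 groups and lowest in replicate 3 in 6 of 6. Ajuba was highest in replicate 2 in 6 of 6, Tbkbp1 in 5 of 6 and Inhba in 4 of 6 groups. Pros1 was lowest in replicate 1 in 5 of 6 groups and highest in replicate 3 or 4 in all 6. Rnd3 had no such order, with replicate 3 highest in 3, replicate 2 in 2 and replicate 1 in 1 of the 6 groups. Over the 24 libraries at 48 h, the deviations of log2 CPM from the group mean had r = 0.82 between Tgm2 and Tbkbp1, 0.72 between Tgm2 and Inhba and -0.72 between Pros1 and Inhba; same-numbered libraries are not independent here, and what a number stands for is not given in the labels.

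**Figure D5:**
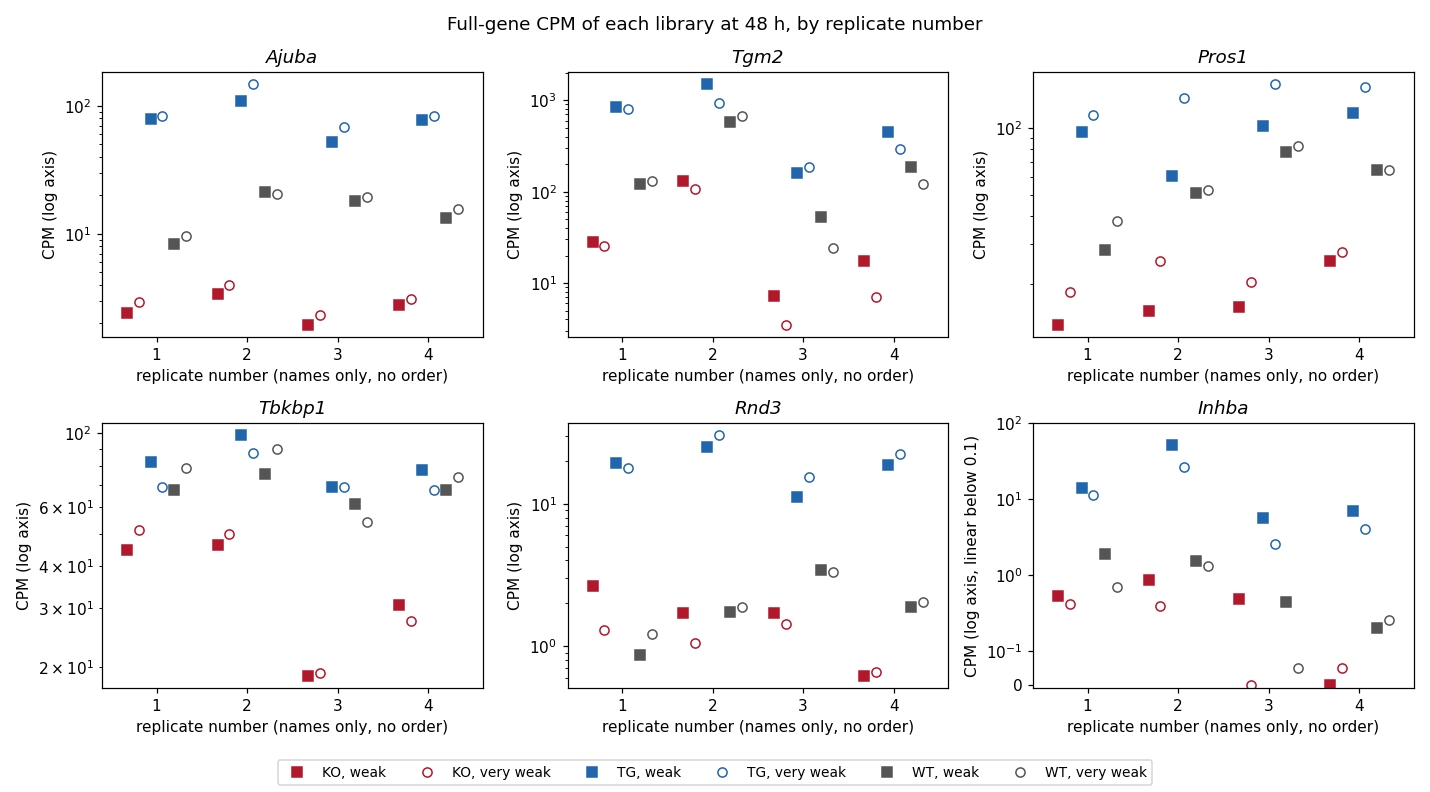
Full-gene CPM (vertical axis, logarithmic; linear below 0.1 for Inhba) of each library at 48 h by replicate number (horizontal axis, no order), with colours for KO, TG and WT, filled squares for the weak and open circles for the very weak stimulus. Tgm2 is highest in replicate 2 and lowest in replicate 3 in all 6 groups, and within each number and strength its order is KO, WT, TG from low to high.

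Other genes of the same pathways were taken from 6 lists and set beside the members. In the Hippo list, of 17 tested genes besides Ajuba, 9 rose and 5 fell with WT activation (39.3% of all genes rose and 42% fell). Lats2, a kinase that Ajuba restrains, fell to 17.9 ± 5.26 CPM in WT stimulated cells (SD, n = 16), against 98.6 ± 3.48 CPM in WT naive cells (n = 3; log2 -2.51 ± 0.12, adjusted p = 7.91e-25 by edgeR). Nf2, an upstream activator of the pathway, rose (log2 0.80 ± 0.08, adjusted p = 6.36e-13 by edgeR), and the kinase Stk4 fell (log2 -0.97 ± 0.11, adjusted p = 1.62e-11 by edgeR). Between 48 h and 24 h, 10 of the 17 rose and 3 fell in KO cells, 5 rose and 4 fell in TG cells, and 6 rose and 5 fell in WT cells; of all genes 29.3%, 26.7% and 28.6% rose and 25.8%, 26.2% and 26% fell in KO, TG and WT cells. The list's median log2 fold change with WT activation was 0.38, beside -0.04 over all genes.

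Of 7 tested genes besides Pros1 in the list of protein S receptors and the protein C pathway, 3 rose and 2 fell with WT activation. Over all genes 39.3% rose and 42% fell. Between 48 h and 24 h, 5 rose in KO, 2 in TG and 4 in WT cells, with none falling (of all genes 29.3%, 26.7% and 28.6% rose and 25.8%, 26.2% and 26% fell). Mertk, a receptor of protein S that macrophages also express, fell to 0.0509 CPM in WT stimulated cells, against 3.87 CPM in WT naive cells (adjusted p = 6.6e-14 by edgeR), and Thbd, thrombomodulin, to 0.0127 against 0.614 CPM (adjusted p = 2.1e-09 by edgeR); the macrophage marker sum moved the same way, and its part was not tested. Axl, the receptor of the related ligand Gas6, rose between 48 h and 24 h in KO cells, to 127 ± 58.3 CPM at 48 h against 28.3 ± 8.05 CPM at 24 h (SD, n = 8 each; log2 2.17 ± 0.22, adjusted p = 1.7e-11 by edgeR). Only the KO value is given here, so this rise is not shown to be particular to KO cells. In the TBK1 list, of 12 genes besides Tbkbp1, 1 rose and 7 fell with WT activation (39.3% of all genes rose and 42% fell). Among those that fell were Ikbke, a kinase related to TBK1 (log2 -2.74 ± 0.15, adjusted p = 1.42e-22 by edgeR), the autophagy receptor Sqstm1 (log2 -1.16 ± 0.10, adjusted p = 6.57e-15 by edgeR) and Traf3 (log2 -0.99 ± 0.10, adjusted p = 4.32e-13 by edgeR), whereas Tbkbp1 rose.

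Of 4 tested transglutaminase genes besides Tgm2, 3 fell with WT activation (42% of all genes fell). Among them were Tgm4 (log2 -3.70 ± 0.40, adjusted p = 1.24e-11 by edgeR) and F13a1, the factor XIII A chain, which macrophages also express (log2 -1.71 ± 0.25, adjusted p = 3.49e-08 by edgeR). Tgm1 rose with Tgm2 between 48 h and 24 h in TG cells, to 5.88 ± 3.65 CPM at 48 h against 0.507 ± 0.185 CPM at 24 h (SD, n = 8 each; log2 3.49 ± 0.49, adjusted p = 6.04e-08 by edgeR). Of the same 4 genes, 1 was also called higher between times in WT cells (28.6% of all genes rose) and 0 in KO cells (29.3%). The rise of Tgm1 is thus not shown to be particular to TG cells. Of 16 genes besides Rnd3 in the Rnd and ROCK list, 3 rose and 8 fell with WT activation (39.3% of all genes rose and 42% fell). Among those that fell were the myosin light chain Myl12b (log2 -1.96 ± 0.08, adjusted p = 1.76e-26 by edgeR), Rhob (log2 -3.03 ± 0.19, adjusted p = 7.59e-20 by edgeR) and the kinase Limk2 (log2 -1.24 ± 0.08, adjusted p = 8.47e-20 by edgeR). Stromal, endothelial and B cell marker sums fell as well, and their part was not tested. Of 14 genes besides Inhba in the activin list, 3 rose and 8 fell, against 39.3% and 42% of all genes. There were falls of Smad7, an inhibitor of TGF-β family signalling (log2 -4.64 ± 0.14, adjusted p = 2.79e-32 by edgeR), the common mediator Smad4 (log2 -1.36 ± 0.06, adjusted p = 3.01e-25 by edgeR), the activin receptor Acvr1b (log2 -2.29 ± 0.12, adjusted p = 1.25e-22 by edgeR) and the activin-responsive Smad3 (log2 -1.85 ± 0.13, adjusted p = 1.3e-18 by edgeR). In KO against WT naive cells no gene of the 6 lists was called (0.0365% of all genes), and in TG against WT naive cells 7 were (7.83%). Of 17 tested genes in the Hippo list 3 were higher and 1 lower. In the TBK1 list 1 of 12 was higher, and in the activin list 2 of 14 were lower. None of 4, 7 and 16 genes was called in the transglutaminase, protein S and Rnd lists. Nothing is read from the number of these calls. Limd1, Nf2, Amotl1 and Sting1 were higher and Mob1a, Acvr1b and Acvr1c lower in TG naive cells, with log2 fold changes from -2.48 (Acvr1c) to 1.74 (Amotl1).

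Group means of log2 CPM over the 12 stimulated groups were used to find the genes most like each member among 11465 others, as a description; the groups share genotypes and times. Ajuba was most like Rheb (Pearson r = 0.99), Ubd (0.99) and Picalm (0.98). Tgm2 was most like Acat2 (0.995), Acat3 (0.99) and Clcn3 (0.99), of which the first pair are close copies whose reads may be shared. For Pros1 they were Zfp280b (0.99), Agpat3 (0.98) and Prkch (0.98). Tbkbp1 was most like Irf8 (0.98), Tbx21 (0.97), which encodes T-bet, and Rmdn3 (0.96). Rnd3 was most like Gja1 (0.99) and Tes (0.98). For Inhba they were the cytokine gene Il24 (0.99), Mapkapk2 (0.99) and Kif3a (0.98). Among the members themselves, Ajuba and Pros1 (0.95), Tgm2 and Rnd3 (0.94) and Rnd3 and Inhba (0.94) were most alike, and Tbkbp1 and Inhba least (0.56).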

How the data were processed

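Poly(A) RNA was sequenced as single-end reads from a stranded kit, per the labels' protocols. Tools named in the submitters' processing notes are STAR 2.5.2a with build mm10, FastQC 0.11.5, and edgeR 3.24.3 under R 3.5. How reads were counted (program, annotation, strand) was not given in the sources used here. The authors deposited whole-number counts per gene, not normalized, in a full-gene and an intron table. The full-gene table does not hold the intron reads, since the intron count was larger in 14.1% of values. All library columns matched a label (0 left over), and 23968 of 24028 IDs were named through RefSeq. No libraries were identical.

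Each table was fitted with edgeR 4.0.16 (R 4.3.3): filterByExpr (13709 full-gene and 12366 intron genes kept; all 6 members in the first, 5 in the other), TMM factors (0.939 to 1.06), a model of all 58 libraries by group that left 43 residual degrees of freedom, and quasi-likelihood F tests with Benjamini-Hochberg adjustment over all genes, called under 0.05. The members, gene lists and named genes were chosen with earlier results of these data known; from each list the 4 genes with the smallest adjusted p, and for each member the 3 genes of highest correlation (at least 1 CPM, prior count 2), are named, except for an item that is not reported here. Same-numbered libraries had correlated deviations (r over 0.1 in every pair) between strengths in each genotype (0.268 to 0.732), between times in KO cells (0.167 to 0.301) and between genotypes in stimulated cells, so their numbers were treated as pairs there; the pairing comes from the data, not the labels. Alternatives were DESeq2 1.42.0, RLE factors, no filter, a replicate block, only the groups compared, subsets of replicates and leaving out each library. Counts carry no molecular identifiers, so floors cover counting error only.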

Additional observations from a re-analysis of the deposited data

Results flagged for a closer look

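Among 78 groups of 4 libraries (6 genes in 13 groups), 5 held a library far from the others by Dixon's test at the 95% level, which flags 1 in 20 independent groups by chance. Same-numbered libraries deviated together, so these groups are not independent and their number was not compared with chance. Ajuba in TG cells under the weak stimulus at 24 h had 7.77 CPM in replicate 3, below the next value of 18.2 CPM. Tgm2 in WT cells had 5.82 CPM in replicate 2 under the weak stimulus at 24 h, above the next value of 1.56 CPM, and 676 CPM in replicate 2 under the very weak stimulus at 48 h, above 130.4 CPM. Tbkbp1 in TG cells under the very weak stimulus at 48 h had 87.2 CPM in replicate 2, above 69.2 CPM. Inhba in WT cells under the very weak stimulus at 24 h had 0.558 CPM in replicate 2, above 0.0529 CPM. Replicate 2 was the high library in 4 of these 5 groups.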

How the results depend on the processing

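Apart from leaving out single libraries, counts and medians kept their value (counts within 1.5 times, medians within the replicate spread) in 154 combinations of result and setting, and in 17 they did not. With replicates 3 and 4 alone, 3967, 4645 and 4436 genes were called between 48 h and 24 h in KO, TG and WT cells, 2 and 11 genes between strengths in KO and WT cells, and the median KO-minus-WT log2 difference of the 6 genes was -2.10; with fewer libraries these fits have fewer degrees of freedom. In the fit of only the groups compared, 6 genes were called between strengths in TG cells and 2 between KO and WT naive cells. A replicate block gave 13 genes for KO against WT naive cells and 10, 11 and 8 between strengths (KO, TG, WT). Within only the groups compared it gave 409, 746 and 1069, with 1, 3 and 0 of the 6 members. The share of all genes is not given for that fit, so nothing is read from these member counts. In WT activation, where the numbers did not pair libraries, the block gave Inhba a log2 fold change of 1.37 (adjusted p = 0.049 by edgeR). The sign turned for Rnd3 in KO against WT stimulated cells (0.28, replicates 1 and 2 alone), for Tgm2 at 24 h only (-2.29) and for Rnd3 at 48 h only (1.004) in WT activation; the first cause was not tested. Leaving out each library in turn gave 2 to 20 genes called in KO and 526 to 1195 in TG against WT naive cells, and 0 to 2 between strengths in KO cells. The members called between times stayed at 5 to 6 in WT cells, and those in WT activation at 3 to 4. Between times the count stayed at 5 in KO and TG cells, but it includes values given above as a description, so nothing is read from it. Between times in TG cells, where the numbers did not pair all libraries, the block within only the groups compared called Tbkbp1 (log2 0.26, adjusted p = 0.0026 by edgeR). No other block changed a call of the members, apart from those given beside the time and dose results. Low counts limit the values of Inhba in naive cells and at 24 h, and of Rnd3 at 24 h.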
